A study of Mus musculus with 15 samples.

Results

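The genes described here carry out or control the antioxidant and glutathione response that is led by the transcription factor NRF2. 10 mouse genes were listed by name: Nfe2l2, Slc7a11, Gclc, Gclm, Gsr, Txnrd1, Srxn1, Prdx1, Hmox1 and Nqo1. Each was measured by the brightest probe set (the group of probes for 1 transcript) that the platform's gene table gives that 1 symbol. 9 of the 10 had such a probe set, of 22180 genes measured in this way, and 8 passed the filter on dim signal, of 15468 genes tested. Prdx1, a peroxiredoxin that reduces hydrogen peroxide, has no value here, because its 3 probe sets also list other symbols. Nqo1 was measured but not tested.

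NRF2, encoded by Nfe2l2, is held low in unstressed cells by KEAP1, which hands it to a ubiquitin ligase. Electrophiles and oxidants modify KEAP1, NRF2 then accumulates, and with small MAF proteins it binds antioxidant response elements near genes for glutathione, thioredoxin, heme and quinone metabolism. In macrophages the glutathione and thioredoxin genes among them help supply the thiols that buffer the oxidants and nitric oxide made after activation.

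The cells were RAW264.7, a transformed mouse macrophage line, and their RNA was hybridised to 15 arrays that make up 5 groups of 3. Of the 4 groups given 1.0 µg/mL lipopolysaccharide (LPS, a bacterial outer membrane component that macrophages sense), 1 received 5.0 µM 13-HDHEA, 1 received 5.0 µM 16-HDHEA, 1 received 2.5 µM of each (the combined treatment) and 1 received vehicle. The fifth group received vehicle and no LPS. HDHEAs are hydroxylated docosahexaenoyl ethanolamides, derivatives of an omega-3 fatty acid, and the 13- and 16- forms are positional isomers that differ in the carbon carrying the hydroxyl group. Every group was in 0.1% ethanol, the compounds or vehicle were given 30 min before LPS, and RNA was taken after 24 h. The labels give each replicate number an experiment identifier of its own, which ties together the 5 arrays of that number.

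The values are log2 expression after RMA, which makes the distributions of the arrays nearly equal, and array medians lay between 3.62 and 3.69. All 8 macrophage markers checked (among them Cd68, Csf1r and Itgam) were well above the 40th percentile of the arrays, which averaged 3.18, in both the LPS arrays and those without LPS. Adgre1, a macrophage surface receptor gene, was the one that differed most, at 10.54 ± 0.226 with LPS and vehicle and 6.04 ± 0.259 without LPS (SD, n = 3 each), and its part in the results was not tested. Markers of T cells, B cells, neutrophils, fibroblasts and epithelial cells averaged at most 5.02 over the 12 LPS arrays, at S100a8, and 4.85 in the arrays without LPS, at Krt8. Of these, the neutrophil marker S100a8 averaged 4.96 ± 0.434 with LPS and vehicle and 3.66 ± 0.402 without LPS, and the fibroblast marker Pdgfra averaged 5.12 ± 0.335 with LPS and vehicle and 4.16 ± 0.522 without LPS (SD, n = 3 each). Their part in the results was not tested. Il1b, a cytokine gene that LPS induces in macrophages, stood at 12.34 ± 0.0457 with LPS and vehicle and 3.42 ± 0.139 without LPS (SD, n = 3 each). Precision is limited by having 3 arrays a group.

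The promoter windows of 4 genes are shown because these genes moved with LPS in different directions and by different amounts, as given in the values that follow. They are the RefSeq sequences (build GRCm38.p6) from 250 bases before to 50 bases after the gene's start, 5′ to 3′ on the gene's own strand. Capitals mark matches, on either strand, to the core of the antioxidant response element (TGACNNNGC), to the AP-1 site (TGANTCA) or to the amino acid response element (TGATGNAA), the kind of site that ATF4 binds.
Slc7a11 (chr3:50443564-50443863, minus strand): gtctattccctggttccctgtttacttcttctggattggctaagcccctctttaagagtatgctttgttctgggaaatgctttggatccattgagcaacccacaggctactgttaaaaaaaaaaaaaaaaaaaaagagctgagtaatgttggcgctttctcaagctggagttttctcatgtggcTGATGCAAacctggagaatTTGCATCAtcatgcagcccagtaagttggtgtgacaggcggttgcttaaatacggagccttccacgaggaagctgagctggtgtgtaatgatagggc
Srxn1 (chr2:152105274-152105573, plus strand): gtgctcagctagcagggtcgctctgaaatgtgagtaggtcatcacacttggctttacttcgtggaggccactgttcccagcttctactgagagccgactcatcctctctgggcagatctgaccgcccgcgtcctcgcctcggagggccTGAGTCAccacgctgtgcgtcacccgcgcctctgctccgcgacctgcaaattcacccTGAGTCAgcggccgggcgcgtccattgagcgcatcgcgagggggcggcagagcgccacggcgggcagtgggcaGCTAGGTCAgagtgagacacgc
Gclm (chr3:122245307-122245606, plus strand): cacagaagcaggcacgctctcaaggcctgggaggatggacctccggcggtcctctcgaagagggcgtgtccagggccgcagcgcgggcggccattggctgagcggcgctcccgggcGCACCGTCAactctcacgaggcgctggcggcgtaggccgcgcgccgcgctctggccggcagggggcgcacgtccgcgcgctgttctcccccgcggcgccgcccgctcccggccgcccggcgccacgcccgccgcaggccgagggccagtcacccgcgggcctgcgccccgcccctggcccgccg
Nfe2l2 (chr2:75704614-75704913, minus strand): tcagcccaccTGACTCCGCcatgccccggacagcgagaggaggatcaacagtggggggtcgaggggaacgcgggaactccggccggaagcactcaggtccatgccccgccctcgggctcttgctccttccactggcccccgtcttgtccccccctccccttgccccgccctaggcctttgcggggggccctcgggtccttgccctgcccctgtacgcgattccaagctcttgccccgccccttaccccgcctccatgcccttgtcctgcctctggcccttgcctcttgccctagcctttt

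The Slc7a11 window held no match to the antioxidant response element core and 2 matches to the amino acid response element, beginning at positions -66 and -47 counted from the gene's start and lying on opposite strands. In Srxn1 the antioxidant core was found once, on the opposite strand at positions 28 to 36, beside 2 AP-1 matches that begin at -102 and -45. Gclm had 1 antioxidant core match on the opposite strand, at -134 to -126, and Nfe2l2 had 1 on its own strand, at -240 to -232. RefSeq windows were matched for 7 of the 10 genes (9 windows, since Txnrd1 has several starts). 5 of these 7 genes held the antioxidant core, namely Nfe2l2, Srxn1, Gclm, Prdx1 and Txnrd1 (Txnrd1 not in all of its windows). Of all 32851 windows 12.4% did, which is a share of windows and not of genes. The 7 genes were listed for their part in the NRF2 response, so they are not a neutral sample of promoters. The AP-1 letters were in 7.81% of all windows and, of the 7 genes, in Srxn1 and Prdx1. The amino acid response element was in 3.97% of all windows and, of the 7 genes, in Slc7a11. In Prdx1 the antioxidant core and 1 of the AP-1 matches overlap. A match describes these letters in this window and shows no binding.

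The first comparison asked what LPS did to the NRF2 and glutathione genes when both groups had vehicle. Slc7a11, the cystine importer that feeds glutathione synthesis, rose 12.1-fold. Hmox1, Srxn1, Gclm and Gsr rose between 1.30-fold and 1.71-fold. Gclc, the catalytic subunit of the enzyme that makes the glutathione precursor, was 1.65-fold lower, and Nfe2l2 itself was 1.22-fold lower. Thus 5 of the 8 tested genes rose, 2 fell and 1 (Txnrd1) did not pass, in limma at an adjusted p under 0.05. Over all tested genes 29.8% were called, 13.5% higher and 16.3% lower, and 37.8% had an unadjusted p under 0.05, as did 7 of the 8. The share called depends on the filter on dim signal. With that filter at the 60th percentile 4750 of 10795 genes were called, and genes of like signal were not compared. The median log2 difference of the 8 genes was 0.47, against 0.00021 over all tested genes. These 8 genes were chosen with earlier results of these data known, so setting them beside all tested genes is no independent test. These arrays measure RNA of whole cultures, so that fewer cells making a transcript and less transcript per cell cannot be told apart.

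**Figure D1:**
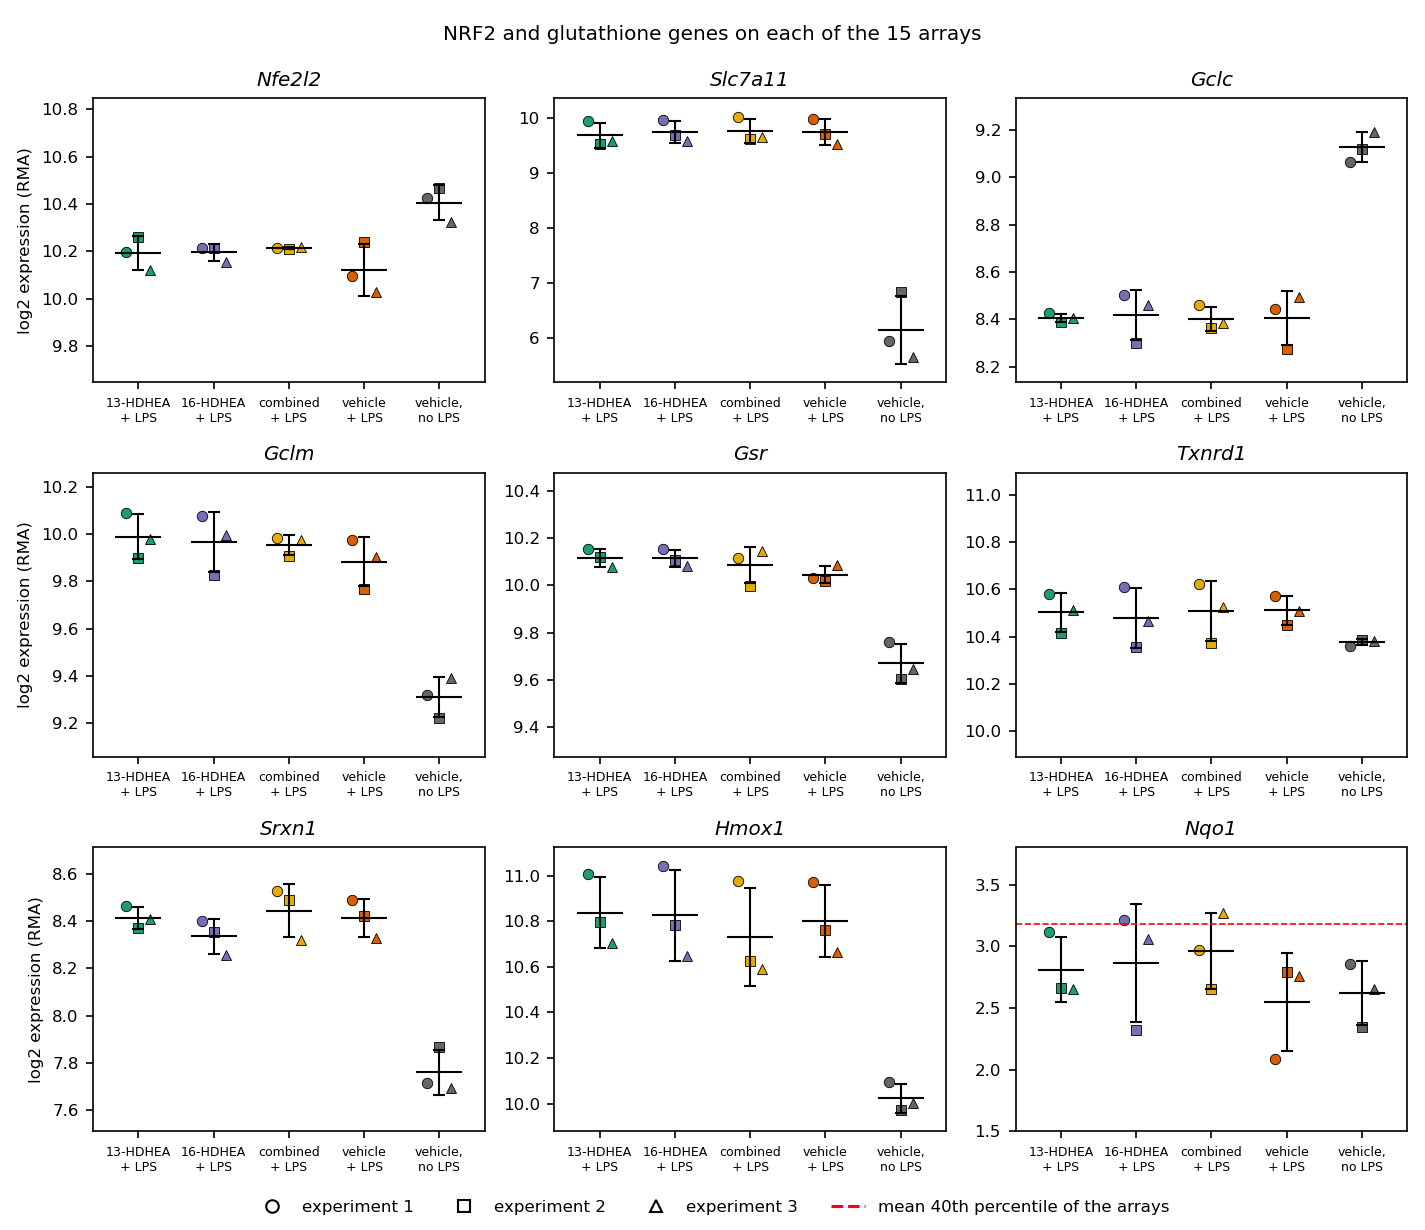
Log2 expression (RMA) of 9 NRF2 and glutathione genes on each array, 1 panel a gene with its own vertical axis. Points are arrays (the shape gives the experiment, the colour the group), horizontal bars are group means and error bars are SD (n = 3). For Slc7a11, Hmox1, Srxn1, Gclm and Gsr the 12 LPS arrays lie above the 3 arrays without LPS, for Gclc and Nfe2l2 below them, while Nqo1 stays around the dashed line at the 40th percentile of all probe sets or under it. Of all tested genes 28.4% were separated in this way.

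Nfe2l2, the gene of NRF2, had log2 expression of 10.10, 10.24 and 10.03 with LPS and vehicle, against 10.43, 10.47 and 10.32 without LPS. The 3 LPS arrays were all below the 3 arrays without LPS, and 41.2% of all tested genes had no overlap between these groups. The log2 difference came to -0.28 (SE 0.0761, 95% interval -0.45 to -0.12; limma's adjusted p = 0.0109). It was -0.33, -0.23 and -0.30 in the 3 experiments. Fitting these 6 arrays by themselves ended the call (adjusted p = 0.066), as did leaving out replicate 3 of LPS with vehicle (adjusted p = 0.0518).

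Slc7a11 encodes xCT, the light chain of the antiporter that brings in cystine in exchange for glutamate. Its log2 expression was 9.99, 9.72 and 9.53 with LPS and vehicle, against 5.95, 6.84 and 5.66 without LPS. The groups were far apart, and the SD was 0.232 with LPS and vehicle, against 0.615 without LPS. The log2 difference came to 3.59 (SE 0.244, 95% interval 3.07 to 4.12; limma's adjusted p = 8.6e-08). In the 3 experiments the difference was 4.04, 2.87 and 3.87, and the smallest belongs to experiment 2, where the array without LPS was highest. A second, dimmer probe set of Slc7a11 read 7.26, 7.05 and 6.76 with LPS and vehicle, against 3.34, 4.35 and 2.42 without LPS. Its difference, 3.65, was close to that of the brighter one, although 1 of its arrays without LPS lay under the 40th percentile.

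Gclc and Gclm encode the catalytic and the modifier subunit of glutamate-cysteine ligase, the rate-limiting enzyme of glutathione synthesis, and they moved in opposite directions. Gclc had log2 expression of 8.45, 8.28 and 8.50 with LPS and vehicle, against 9.07, 9.12 and 9.19 without LPS. Every LPS array was below every array without LPS, where 41.2% of all tested genes did not overlap between these groups. The log2 difference came to -0.72 (SE 0.0808, 95% interval -0.90 to -0.55; limma's adjusted p = 9.41e-06). Gclm read 9.98, 9.77 and 9.91 with LPS and vehicle, against 9.32, 9.22 and 9.39 without LPS. Here the LPS arrays were all higher, and the log2 difference came to 0.57 (SE 0.089, 95% interval 0.38 to 0.76; limma's adjusted p = 0.00019).

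Because the subunits act as a pair, the within-array log2 value of Gclm minus that of Gclc was also taken, of which only the change between groups can be read. It was 1.53, 1.49 and 1.41 with LPS and vehicle, against 0.26, 0.10 and 0.20 without LPS. The groups did not overlap, which follows from the separate Gclm and Gclc values already given. An exact two-sided permutation test over the arrays, not paired by experiment, gave p = 0.1, the smallest that 3 arrays against 3 allow. That outcome was fixed by the separation, so it adds no support. In the other LPS groups this value averaged 1.58 ± 0.0777 with 13-HDHEA, 1.55 ± 0.0271 with 16-HDHEA and 1.55 ± 0.0346 with the combined treatment (SD, n = 3 each).

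Gsr encodes glutathione reductase, which regenerates glutathione from its oxidised form with NADPH. It had log2 expression of 10.03, 10.02 and 10.08 with LPS and vehicle, against 9.76, 9.60 and 9.65 without LPS. The groups did not overlap, as in 41.2% of all tested genes. The log2 difference came to 0.37 (SE 0.0715, 95% interval 0.22 to 0.53; limma's adjusted p = 0.00104). It was 0.27, 0.41 and 0.44 in the 3 experiments.

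The thioredoxin branch was represented by Txnrd1, the cytosolic thioredoxin reductase, and Srxn1, the sulfiredoxin that restores over-oxidised peroxiredoxins. Txnrd1 read 10.57, 10.45 and 10.51 with LPS and vehicle, against 10.36, 10.39 and 10.38 without LPS. Its arrays did not overlap between these groups, as was true of 41.2% of all tested genes, but the log2 difference of 0.13 did not pass (95% interval -0.05 to 0.32, adjusted p = 0.298 in limma). Over all 12 LPS arrays Txnrd1 ran from 10.36 to 10.62, a range that takes in the arrays without LPS. Srxn1 read 8.49, 8.42 and 8.33 with LPS and vehicle, against 7.72, 7.87 and 7.70 without LPS. All LPS arrays were higher, and the log2 difference came to 0.65 (SE 0.0833, 95% interval 0.47 to 0.83; limma's adjusted p = 3.19e-05).

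Hmox1 encodes heme oxygenase 1, which breaks heme into biliverdin, iron and carbon monoxide. It had log2 expression of 10.97, 10.76 and 10.67 with LPS and vehicle, against 10.09, 9.97 and 10.00 without LPS. The groups were separate, as they were for 41.2% of all tested genes. The log2 difference came to 0.78 (SE 0.131, 95% interval 0.50 to 1.06; limma's adjusted p = 0.000372). It was 0.88, 0.79 and 0.67 in the 3 experiments.

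Nqo1, a quinone reductase that is a widely used NRF2 target, was dim in every group. It read 2.09, 2.79 and 2.76 with LPS and vehicle, against 2.86, 2.34 and 2.65 without LPS. Over the 3 HDHEA groups the 9 arrays ran from 2.32 to 3.27. It exceeded the 40th percentile of its own array on 1 array with 16-HDHEA and on 1 with the combined treatment, and on no other array. A difference between groups of Nqo1 was not detectable at this signal.

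**Figure D2:**
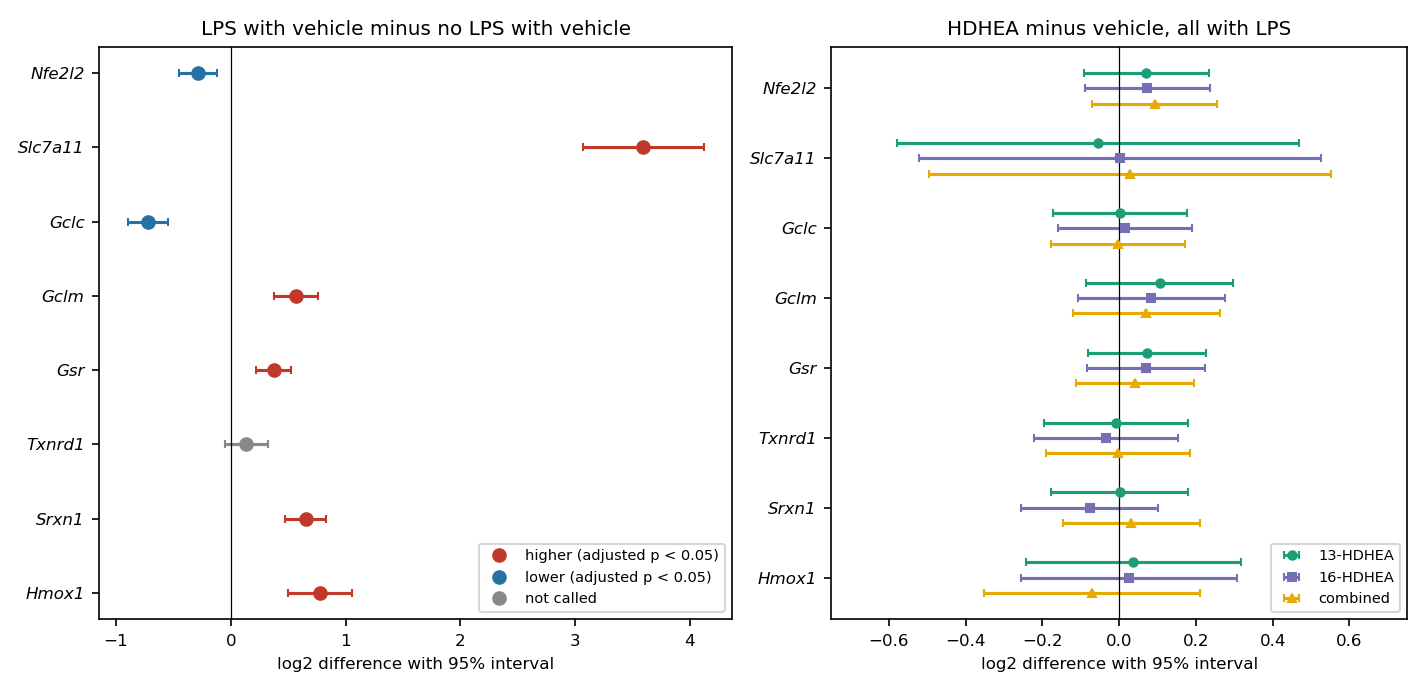
Log2 differences of the 8 tested genes with 95% intervals from limma, left for LPS with vehicle minus no LPS with vehicle (red higher, blue lower, grey not called) and right for each HDHEA treatment minus vehicle, all with LPS. The axes have different scales. On the left Slc7a11 stands at 3.59 and Gclc at -0.72, while on the right every interval crosses 0 and the differences lie between -0.08 and 0.11.

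The next comparisons asked whether HDHEA treatment changed these genes in LPS-activated cells. None of the 8 genes passed with 13-HDHEA, with 16-HDHEA, with the combined treatment or with the 3 HDHEA groups averaged, in limma at an adjusted p under 0.05. None had an unadjusted p under 0.05 in any of these comparisons either, with or without the experiment as a block in the fit. Over all tested genes the calls made up 0.00646% (1 gene) with 13-HDHEA and 0% in the other comparisons with vehicle. An unadjusted p under 0.05 was reached by 4.27% of all tested genes with 13-HDHEA, 2.97% with 16-HDHEA, 3.48% with the combined treatment and 3.79% with the 3 groups averaged. All of these comparisons use the same 3 vehicle arrays.

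Slc7a11 averaged 9.69 ± 0.224 with 13-HDHEA, 9.75 ± 0.198 with 16-HDHEA, 9.77 ± 0.219 with the combined treatment and 9.75 ± 0.232 with vehicle (SD, n = 3 each). Its differences from vehicle were -0.06 (95% interval -0.58 to 0.47) with 13-HDHEA, 0.0020 (-0.52 to 0.53) with 16-HDHEA and 0.03 (-0.50 to 0.55) with the combined treatment. These are the widest intervals of the 8 genes, since the fit pools the spread of all 5 groups and Slc7a11 varied most without LPS.

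Hmox1 read 11.01, 10.80 and 10.71 with 13-HDHEA, 11.04, 10.78 and 10.65 with 16-HDHEA and 10.98, 10.62 and 10.59 with the combined treatment, against 10.97, 10.76 and 10.67 with vehicle. All 4 groups overlap. The differences from vehicle were 0.04 (95% interval -0.24 to 0.32), 0.03 (-0.26 to 0.31) and -0.07 (-0.35 to 0.21) for 13-HDHEA, 16-HDHEA and the combined treatment in that order. With the experiment as a block these intervals were narrower, at -0.12 to 0.19, -0.13 to 0.18 and -0.22 to 0.08.

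Gclc varied least between treatments. It averaged 8.41 ± 0.0177 with 13-HDHEA, 8.42 ± 0.105 with 16-HDHEA, 8.40 ± 0.0503 with the combined treatment and 8.41 ± 0.115 with vehicle (SD, n = 3 each), and its group means spanned 0.0177 in log2. Gclm averaged 9.99 ± 0.0954 with 13-HDHEA, 9.97 ± 0.128 with 16-HDHEA, 9.95 ± 0.0417 with the combined treatment and 9.88 ± 0.104 with vehicle (SD, n = 3 each). For Gclm each HDHEA array was above the vehicle array of its own experiment, in 3 of 3 experiments for each treatment. The treatments share these vehicle arrays, and the share of all tested genes with this order was not counted. The Gclm differences were 0.11 (95% interval -0.09 to 0.30) with 13-HDHEA, 0.08 (-0.11 to 0.27) with 16-HDHEA and 0.07 (-0.12 to 0.26) with the combined treatment, each with an adjusted p of 1 in limma.

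Nfe2l2 read 10.20, 10.26 and 10.12 with 13-HDHEA, 10.22, 10.22 and 10.16 with 16-HDHEA and 10.22, 10.21 and 10.22 with the combined treatment, against 10.10, 10.24 and 10.03 with vehicle. The vehicle arrays spanned more than the arrays of any HDHEA group and overlapped all of them. Its differences from vehicle were 0.07, 0.07 and 0.09, with 95% intervals between -0.09 and 0.26. Gsr differed by 0.07, 0.07 and 0.04 from vehicle and Txnrd1 by -0.0087, -0.03 and -0.0030, each with intervals that hold 0. Srxn1 was lower with 16-HDHEA than with vehicle in 3 of 3 experiments, with differences of -0.09, -0.07 and -0.07, but its mean difference of -0.08 did not pass (95% interval -0.26 to 0.10). How many of all tested genes were lower in this way was not counted.

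The isomers were compared directly at the matched dose of 5.0 µM, which is the 1 compound pair tested. None of the 8 genes passed, in limma at an adjusted p under 0.05 or at an unadjusted p under 0.05, where 0.00646% and 3.10% of all tested genes did. The 1 gene behind the first share, which is none of the 8, was no longer called without replicate 2 or 3 of 13-HDHEA, without replicate 2 or 3 of 16-HDHEA or with only these groups in the fit. The 13-HDHEA minus 16-HDHEA differences ran from -0.06 at Slc7a11 (95% interval -0.58 to 0.47) to 0.08 at Srxn1 (-0.10 to 0.26). For Gsr the difference was 0.0028 (-0.15 to 0.16) and for Nfe2l2 it was -0.0025 (-0.17 to 0.16). Thus no difference between the isomers was called in these genes with 3 arrays a group, and the intervals still allow the sizes given. The combined treatment held 2.5 µM of each isomer, so that its values stand beside those of the single compounds without a comparison.

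Each HDHEA group with LPS was also set against the cells without LPS, which all such comparisons share. With 13-HDHEA, 5 genes were higher and 2 lower than without LPS, where 29.7% of all tested genes were called (12.7% higher and 17.0% lower). With 16-HDHEA, 5 were higher and 1 lower, where 29.4% were called (13.1% higher and 16.3% lower). With the combined treatment, 5 were higher and 1 lower, where 28.9% were called (12.7% higher and 16.2% lower). These shares too are over all genes that passed the filter, whatever their signal. Here too the 8 genes were chosen with earlier results of these data known. An unadjusted p under 0.05 was reached by 7 of the 8 genes each time, and by 38.2% of all tested genes with 13-HDHEA, 37.8% with 16-HDHEA and 37.6% with the combined treatment. The higher ones were Slc7a11, Hmox1, Gclm, Srxn1 and Gsr each time. Slc7a11 stood at 3.54 with 13-HDHEA, 3.60 with 16-HDHEA and 3.62 with the combined treatment, beside 3.59 with vehicle. Gclc stood at -0.72, -0.71 and -0.72, beside -0.72 with vehicle. Nfe2l2 was the gene whose call varied. Its difference was -0.21 with 13-HDHEA (adjusted p = 0.0493), -0.21 with 16-HDHEA (adjusted p = 0.0522) and -0.19 with the combined treatment (adjusted p = 0.0775, all in limma). With the experiment as a block it passed in all 3 (adjusted p = 0.0193, 0.0206 and 0.0324). The 13-HDHEA call was lost with each array centred on its median (difference -0.14, adjusted p = 0.185), with repeated quantile normalization (0.051), with no filter on dim probe sets (0.0889) and with only these groups in the fit (0.133). It was also lost without 13-HDHEA replicate 1 (0.0967), 13-HDHEA replicate 3 (0.163), and replicate 1 (0.115) or replicate 2 (0.15) of the cells without LPS.

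The order of the group means can be given for every measured gene. For Slc7a11, Hmox1, Gclm, Srxn1 and Gsr the cells without LPS came last and overlapped none of the LPS groups. For Gclc and Nfe2l2 they came first and again overlapped none. Among the 4 LPS groups neighbours in the order overlapped for all 9 genes. Within experiments, Gclm was lowest with vehicle of the 4 LPS groups in 3 of 3, and Srxn1 was lowest with 16-HDHEA in 3 of 3. These orders were picked out after the values were seen, and the share of all tested genes with such an order was not counted. The 13-HDHEA minus 16-HDHEA differences of Srxn1 were 0.06, 0.02 and 0.15. The fit with the experiment as a block gave neither gene an unadjusted p under 0.05 in any comparison made among these groups (each HDHEA treatment and their mean against vehicle, and between the isomers). For Txnrd1 the cells without LPS were last but overlapped their neighbour, 16-HDHEA. For Nqo1 all neighbours overlapped. In 7 of the 8 NRF2 and glutathione genes tested, all 12 LPS arrays lay on 1 side of the 3 arrays without LPS. Of all tested genes 28.4% did so. Nqo1, which was not tested, overlapped.

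The LPS arrays also differed by experiment in the same way across treatments. Slc7a11, Hmox1, Gclm, Txnrd1 and Srxn1 were highest in experiment 1 in each of the 4 LPS groups, as were 6.50% of all tested genes. Hmox1 ran from 10.97 to 11.04 in experiment 1, from 10.62 to 10.80 in experiment 2 and from 10.59 to 10.71 in experiment 3. Slc7a11 ran from 9.95 to 10.03 in experiment 1, from 9.54 to 9.72 in experiment 2 and from 9.53 to 9.67 in experiment 3. In both genes experiment 1 did not overlap the others. Gclc was highest in experiment 1 in 3 of the 4 LPS groups and Gsr in 2, while Nfe2l2 was not highest there alone in any of them. Between treatments, the means of the 4 LPS groups spanned 0.11 for Hmox1 and 0.08 for Slc7a11. Without LPS, Slc7a11 was highest in experiment 2, at 6.84. What distinguished the experiments was not tested.

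**Figure D3:**
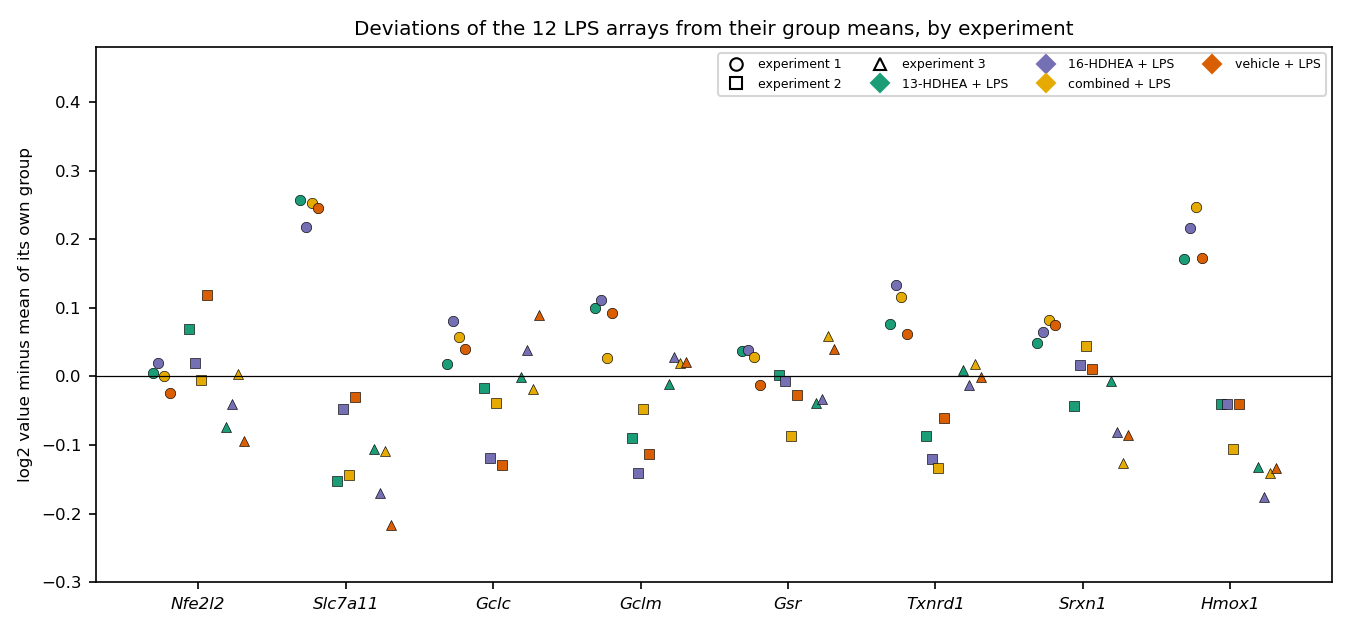
Log2 value of each of the 12 LPS arrays minus the mean of its own group, for the 8 tested genes. The shape gives the experiment and the colour the treatment. Circles (experiment 1) are the highest in every group for Slc7a11, Hmox1, Gclm, Txnrd1 and Srxn1, and the colours are mixed within each experiment.

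The wider pathway was followed with 8 lists of 110 other genes, of which 98 had a probe set and 95 were tested. With LPS against no LPS, both with vehicle, 28 rose, 15 fell and 52 did not pass, beside the 29.8% called over all tested genes. That share depends on the filter on dim signal. With it at the 60th percentile 4750 of 10795 genes were called, and genes of like signal were not compared. The median log2 difference of the 95 genes was 0.12. The lists were chosen with earlier results of these data known, so these counts are no independent test of the lists. With the experiment as a block 32 rose and 17 fell. The block also called more of all 15468 tested genes, 5313 (2420 of them higher), against 4616 (2089 higher) without it. This applies equally to the block counts of the single lists below. Values below are log2 differences, LPS with vehicle minus no LPS.

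Among 10 NRF2 partners and inhibitors 3 rose and 1 fell, with a median of 0.21. Over all tested genes 13.5% were higher and 16.3% lower. The small MAF gene Maff, a partner of NRF2 on DNA, stood at 1.03, and Sqstm1, the autophagy receptor p62 that can draw KEAP1 away, at 0.76. Nfe2l1, a relative of NRF2, was the third to rise, at 0.69, and is named after its value was seen. Bach1, the heme-sensitive repressor that competes with NRF2 for its sites, fell by 0.82, with 6.97 ± 0.0708 in LPS arrays and 7.79 ± 0.0962 without LPS (SD, n = 3 each). Keap1 itself differed by -0.02 and did not pass (adjusted p = 0.935 in limma). With the experiment as a block 5 of the 10 rose, the added ones being Gsk3b (0.30) and Btrc (0.24), which take part in a KEAP1-independent route of NRF2 degradation.

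Of 10 genes for glutathione synthesis, breakdown and transport 4 rose and 1 fell, with a median of 0.21. Of all tested genes 13.5% rose and 16.3% fell. Cth, which makes cysteine by transsulfuration, stood at 2.33, with 11.17 ± 0.217 in LPS arrays and 8.84 ± 0.432 without LPS (SD, n = 3 each). Abcc1, an exporter of glutathione conjugates, stood at 0.86 and Chac2, which degrades glutathione, at 0.72. Cbs, the enzyme before Cth in transsulfuration, was the 1 that fell, at -0.20, and is named after its value was seen. Slc3a2, the heavy chain that pairs with the Slc7a11 product, rose by 0.29, beside 3.59 for Slc7a11 itself. Gss, the second enzyme of glutathione synthesis, differed by 0.12 and did not pass (adjusted p = 0.342 in limma). The Slc3a2 call was lost with only these groups in the fit (adjusted p = 0.0895) and without replicate 1 of LPS with vehicle (0.0825) or replicate 1 (0.0941) or 2 (0.0847) of the cells without LPS. That of Chac2 was lost without replicate 1 of LPS with vehicle (0.059) or of the cells without LPS (0.0611).

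Glutathione-using enzymes went both ways, with 6 of 22 higher, 4 lower and a median of 0.05. Beside each list count here, 13.5% of all tested genes were higher and 16.3% lower. An unadjusted p under 0.05 in limma was reached by 37.8% of all tested genes. Glrx, a glutaredoxin that removes glutathione from proteins, stood at 1.04 and the transferase gene Gstt1 at 0.81, while Mgst3, a microsomal transferase and peroxidase, stood at -1.25. The remaining calls are named after their values were seen. Those that rose were Gstm1 at 0.63, Mgst1 at 0.38, Hagh at 0.34 and Gsto1 at 0.28. Those that fell were Gstk1 at -0.53, the glyoxalase gene Glo1 at -0.34 and the peroxidase gene Gpx1 at -0.34. In the thioredoxin and peroxiredoxin list none of 11 rose and 2 fell (4 had an unadjusted p under 0.05 in limma, and none rose with the experiment as a block in the fit either). Msra, a methionine sulfoxide reductase, stood at -1.20 and Prdx4, the peroxiredoxin of the endoplasmic reticulum, at -0.38. Txn1, thioredoxin itself, differed by 0.05 and did not pass (adjusted p = 0.702 in limma). Of 6 genes for NADPH supply, on which both reductases draw, none rose and 2 fell, with a median of -0.32 (4 had an unadjusted p under 0.05 in limma). With the experiment as a block 4 of the 6 fell and none rose, the added ones being Pgls (-0.43) and Taldo1 (-0.21) of the pentose phosphate pathway. Nnt, the mitochondrial transhydrogenase, stood at -0.56 and Idh1, the cytosolic isocitrate dehydrogenase, at -0.42.

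Of 10 heme and iron genes 4 were higher and 2 lower, with a median of 0.05. For this list and the next 2, the shares over all tested genes were 13.5% higher and 16.3% lower. The share with an unadjusted p under 0.05 in limma was 37.8%. Blvrb, which encodes biliverdin reductase B, stood at 1.03 and the heme transporter gene Slc48a1 at 0.79, while Slc40a1, the iron exporter ferroportin, stood at -0.91. Named after their values were seen, Abcb6 (0.35) and the ferritin heavy chain gene Fth1 (0.22) also rose, and the biliverdin reductase A gene Blvra (-0.34) fell. Of 13 other antioxidant and detoxification genes 3 rose and 3 fell. Sod2, the mitochondrial superoxide dismutase and a known NF-kB target, stood at 2.17, against Osgin1 at -1.03 and the epoxide hydrolase gene Ephx1 at -0.60. The remaining calls, named after their values were seen, were Cat, catalase, at 0.39, Akr1b8 at 0.35 and Nqo2 at -0.31. Of 13 ATF4 and amino acid stress genes 8 rose and none fell, with a median of 0.35 (10 had an unadjusted p under 0.05 in limma). With the experiment as a block 10 rose and none fell, the added ones being the amino acid transporter genes Slc7a5 (0.30) and Slc7a1 (0.27). The stress transcription factor gene Ddit3 stood at 1.42, Nupr1 at 1.27 and the pseudokinase gene Trib3 at 1.02, while Atf4 itself differed by 0.17 and did not pass (adjusted p = 0.431 in limma).

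**Figure D4:**
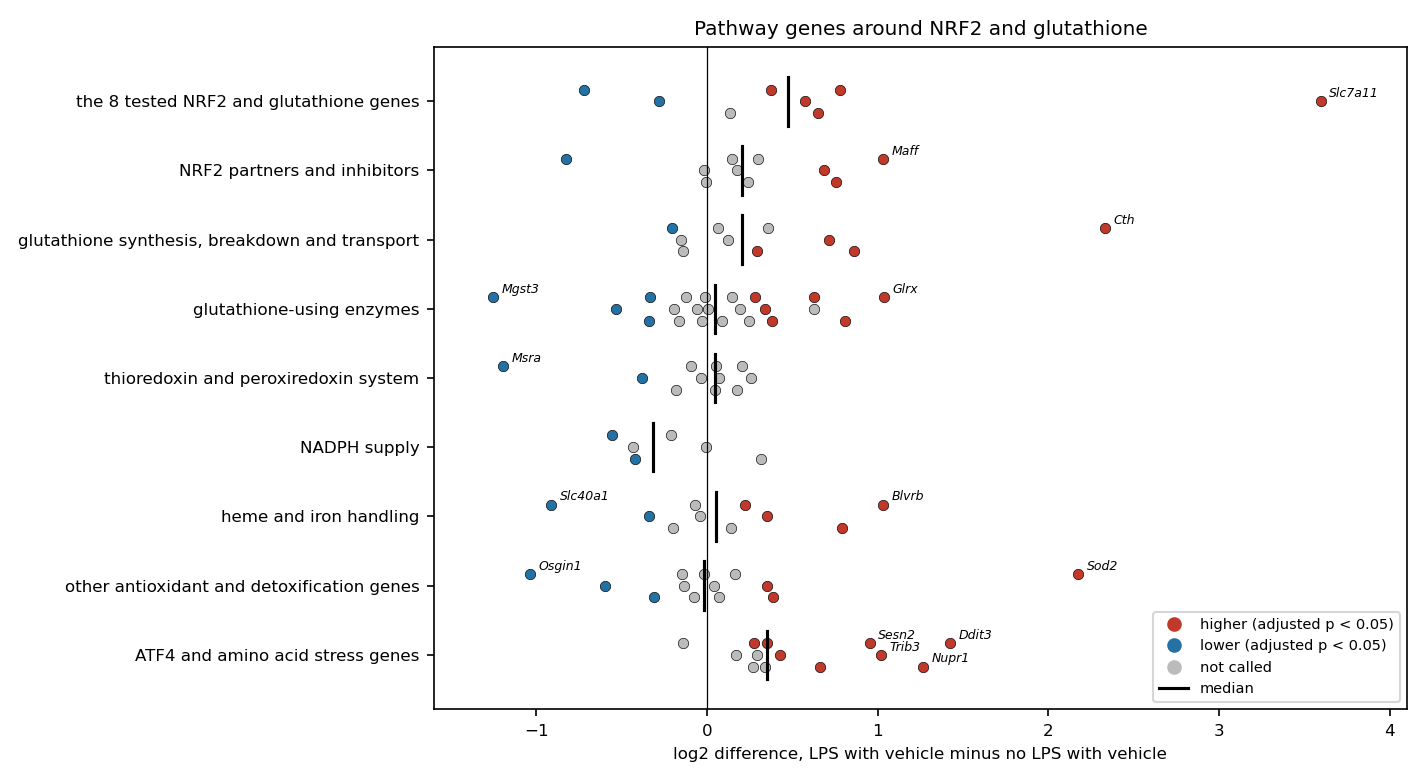
Log2 differences (LPS with vehicle minus no LPS with vehicle) of the 8 tested NRF2 and glutathione genes and of 95 other genes in 8 lists, 1 point a gene. Red is higher, blue lower and grey not called at an adjusted p of 0.05 in limma, and black bars are list medians. Slc7a11 at 3.59 and Cth at 2.33 stand far to the right, while the thioredoxin and NADPH lists hold blue and grey points only.

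None of the 95 pathway genes passed with any HDHEA treatment against vehicle or between the isomers, in limma at an adjusted p under 0.05. An unadjusted p under 0.05 was reached by 4 of them with 13-HDHEA, 1 with 16-HDHEA, 4 with the combined treatment, 3 with the 3 groups averaged and 2 between the isomers, beside the shares of 2.97% to 4.27% over all tested genes. With the experiment as a block these counts were 8, 1, 6, 7 and 2 in the same order. Over all tested genes the block gave 6.23% with 13-HDHEA, 4.43% with 16-HDHEA, 5.11% with the combined treatment, 5.72% with the 3 groups averaged and 4.23% between the isomers. None of the 95 passed at an adjusted p under 0.05 with the block either. Their median log2 difference from vehicle was 0.0021 with 13-HDHEA, 0.01 with 16-HDHEA and 0.01 with the combined treatment.

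The genes most like 3 of the members were found by the root-mean-square difference of log2 values over the 15 arrays, each gene centred on its own mean. The closest to Slc7a11 were Cd274, the checkpoint ligand PD-L1 (0.203), the interferon-stimulated gene Oasl1 (0.222) and Isg15, a ubiquitin-like modifier (0.223), where the median over all tested genes was 1.47. Those closest to Hmox1 were Ampd3, an AMP deaminase (0.0581), the predicted gene Gm6634 (0.0679) and the lipoprotein receptor gene Apobr (0.0766), against a median of 0.384. The nearest to Gclc were Tpgs2 (0.0565), the nuclear pore gene Nup155 (0.0634) and Vcl, which encodes vinculin (0.066), against a median of 0.343. The arrays share 3 experiments, and in each of these genes most of the variation lies between the cells with and without LPS.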

How the data were processed

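RNA of RAW264.7 cells was measured on 15 arrays. Per the labels' protocols, an Affymetrix sense-target assay labelled the RNA with biotin. The authors deposited log2 expression values, 1 per probe set, from RMA per the submitters' processing notes. The RMA version and probe set definition are not stated in those notes. RMA compresses changes of dim probe sets.

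Of 41345 probe sets, 23521 had 1 symbol in the platform's gene table, 1814 had several, and the brightest per gene was kept (22180 genes, 21994 of them found in the RefSeq table of GRCm38.p6 by gene identifier). Genes above the array's own 40th percentile on at least 3 arrays were tested (15468). limma 3.58.1 in R 4.3.3 fitted group means over all 15 arrays (10 residual degrees of freedom, no trend), with two-sided tests, Benjamini-Hochberg adjustment over all tested genes and calls at 0.05. The fit was tested on simulated data. Differences are the first group minus the second.

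Arrays with the same replicate number share an experiment identifier in the labels. Over 30 such pairs, the correlation of their deviations from the group mean was 0.0835 to 0.404 (above 0.1 in 28), so that the fit with the experiment as a block is the paired alternative. Other alternatives were the arrays in the fit, the variance model, the filter, the scaling, the probe sets per gene and leaving out arrays. The members and lists were chosen with earlier results of these data known. Named pathway genes are up to 3 called genes per list with the largest LPS difference, and always Keap1, Bach1, Gss, Slc3a2, Txn1 and Atf4.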

Additional observations from a re-analysis of the deposited data

How the results depend on the processing

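The count of NRF2 and glutathione genes called for LPS with vehicle against no LPS was 7, and lay between 6 and 7 over 14 alternatives, 6 of which left out 1 array. It was 6 to 7 in each comparison of LPS with HDHEA against no LPS, and 0 under every alternative run in each HDHEA comparison with vehicle and between the isomers. With the replicate block the count stayed at 7 for LPS with vehicle, and it was 7 with 16-HDHEA and with the combined treatment against no LPS, against 6 without the block, Nfe2l2 being the gene added. The block changed no other call of these genes. Of the 112 values of the 8 genes under these alternatives for LPS with vehicle, 110 kept their direction and call, and the other 2 were Nfe2l2. Slc7a11 ranged from 3.35 to 3.94, Hmox1 from 0.69 to 0.84 and Gclc from -0.77 to -0.66. The pathway genes called numbered 43, and 35 to 49 under the alternatives. None of the 7 called NRF2 and glutathione genes changed direction under the alternatives, nor did any of the 23 called ones among the 27 named pathway genes, while the other called pathway genes were followed only as counts. Changing the block, the variance model, the filter or the groups in the fit leaves each difference as it was. Averaging probe sets can alter only Slc7a11 of the 8 genes. Direction could therefore change only with the scaling, that average or an array left out. All counts of direction or sign given here carry this limit. The HDHEA differences lie near 0, and some that were never called changed sign (11 of 112 values with 13-HDHEA, 10 of 112 with 16-HDHEA, 15 of 112 with the combined treatment, 25 of 160 with the 3 groups averaged and 19 of 112 between the isomers). Over all genes, the 1 call with 13-HDHEA against vehicle became 2 without vehicle replicate 1 and 0 with only these groups in the fit. Repeated quantile normalization and median centring moved the median LPS difference of all genes to 0.02 and 0.06, against 0.00021 as deposited. With centring, 2534 of the 4616 genes called were higher, against 2089 as deposited. Background correction could not be varied, since only summarised values were used here. The limit for Nqo1 is its signal, and for the HDHEA comparisons 3 arrays a group.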
